A study of Ovis aries with 2 samples.

Results

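CRLF2 and CSF2RA are neighbouring cytokine receptor genes in the pseudoautosomal region (PAR) of the sheep Y-chromosome, and their CpG methylation was examined from 10000 bp before CRLF2 to 10000 bp after CSF2RA. The stretch runs from position 614611 to 739734 of chromosome Y (ARS-UI_Ramb_v3.0) and holds 4499 of the 372890 CpG sites measured on the chromosome, all within the 153772 CpG sites of the PAR. CRLF2 lies at 624611-644545 on the minus strand. The annotation gives 2 records named CSF2RA, both on the plus strand, the first at 669638-697205 and the second at 703802-729734. The DNA came from the lung of 1 F1 fetus of a Churro x Friesian cross, taken at day 100 of gestation with no treatment named. It was read once on PacBio (HiFi reads) and once on Oxford Nanopore (ONT). The 2 platforms are the only repeat measurement, so the spread given below is technical and no p-value was taken. A region's methylation is the mean of the percentages of its CpG sites. The tables hold methylation only, so the tissue label was not checked against expressed markers.

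CRLF2 encodes the receptor chain for thymic stromal lymphopoietin, a cytokine of epithelial barriers such as the airway, and it signals together with the IL7R chain. CSF2RA encodes the alpha chain of the receptor for granulocyte-macrophage colony-stimulating factor, which in the lung is needed by alveolar macrophages for the clearance of surfactant. IL3RA, the alpha chain of the IL3 receptor, belongs to the same family and follows CSF2RA on the chromosome. Most genes of the PAR have a copy on the X-chromosome and a copy on the Y-chromosome, and the PAR is where these chromosomes pair and recombine in male meiosis. In mammals the CpG-rich start of a gene used in many tissues is usually free of methylation, whereas gene bodies are usually methylated.

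The depth behind the values was 14 to 80 valid calls per CpG site on PacBio and 65 to 230 on ONT across the region, and no site fell under the minimum of 5. The median depth was 60 on PacBio and 169 on ONT in the PAR, against 39 and 89 in the male-specific region. Whether reads were aligned to the X-chromosome as well is not stated, so the X and Y copies of CRLF2 and CSF2RA cannot be told apart here, and neither can a mixture of cells and a mixture of chromosomes at a site of intermediate methylation. The region as a whole averaged 71.2% ± 30.2 on PacBio and 62.6% ± 27.0 on ONT, where the SD is that between CpG sites. The PAR had 74.8% and 65.1%. The region held 36.0 CpG sites per kb, compared with 21.9 per kb in the PAR. Along the region, 1-kb windows spanned 2.98 to 94.9% on PacBio, 1.65 to 86.3% on ONT, with an even, high plateau over the first CSF2RA record and deep dips on both sides of it.

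**Figure D1:**
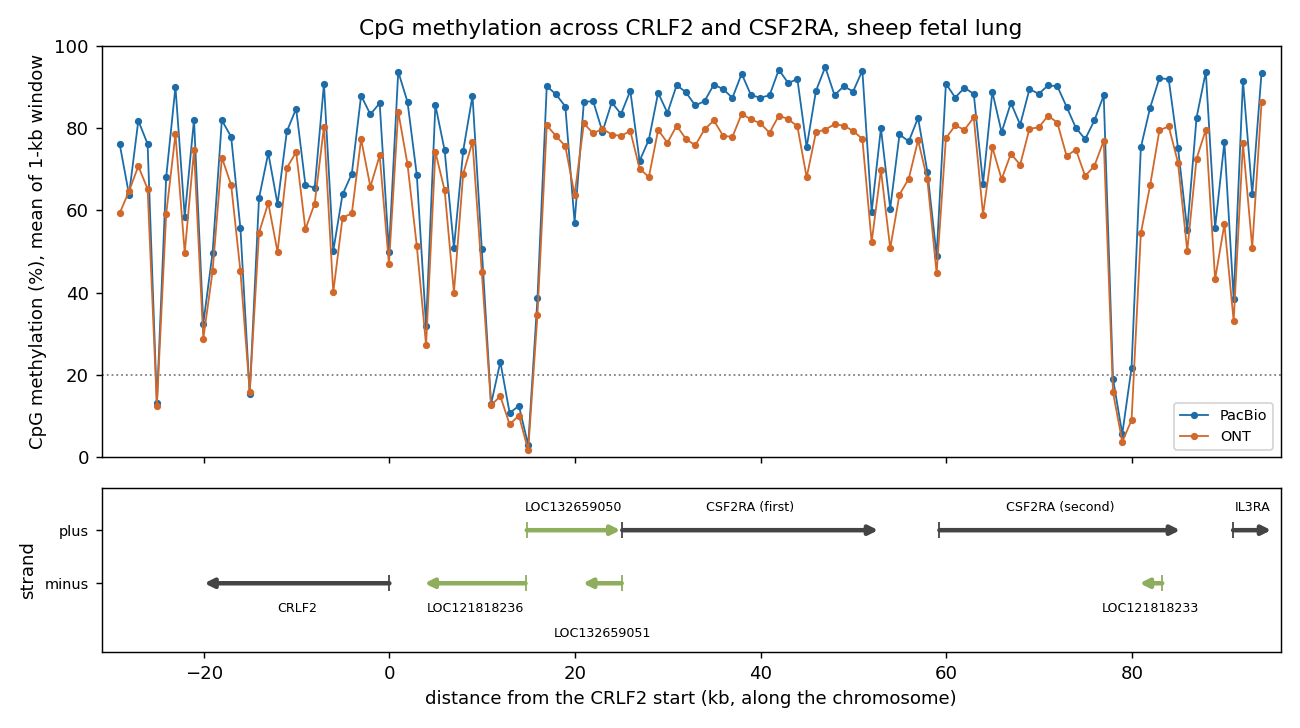
Mean CpG methylation of 1-kb windows (upper panel, %, PacBio in blue and ONT in orange, dotted line at 20%) against the distance from the CRLF2 start in kb, with the 8 annotated genes drawn as arrows by strand below (dark, protein-coding; green, lncRNA). The first CSF2RA record has no window under 20%, whereas the start of the lncRNA pair LOC121818236 and LOC132659050 and the far part of the second CSF2RA record do.

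The CRLF2 start was neither unmethylated nor fully methylated. Over the 27 CpG sites within 500 bp of the start, PacBio gave 48.8% ± 23.7 and ONT 45.9% ± 18.3, or 47.3% ± 2.01 as the mean and SD of the 2 platforms. Pooled over all calls, the 95% Wilson interval was 45.2 to 50.5% on PacBio and 44.0 to 47.0% on ONT. These intervals cover counting error only. The Wilson intervals given further below are likewise for calls pooled over sites, for PacBio from the estimated read counts. The CpG sites from 1000 to 500 bp upstream had 94.6% on PacBio and 85.1% on ONT. At positions -295 to 354 bp from the start, 21 CpG sites had a mean of 38.4% on PacBio and 39.0% on ONT, with a range of 11.1 to 58.4% and of 22.0 to 56.9%. None of the 27 sites was under 20% on both platforms. The lowest PacBio value, 11.1%, was at the site 92 bp into the gene, where ONT had 33.0%. Within 100 bp of the start the 5 CpG sites had 21.7% on PacBio and 27.4% on ONT. Beyond 500 bp into the gene methylation was again high, with 83.0% and 73.2% over the next 18 sites.

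The CRLF2 body, taken as the part of the record more than 1000 bp from its start, had 68.0% ± 29.5 on PacBio and 59.1% ± 25.4 on ONT over 624 CpG sites. The body was thus 19.3 percentage points above the start on PacBio and 13.2 points on ONT, a mean difference of 16.3 ± 4.29 points (SD, n = 2 platforms). The direction depended on how wide the start was taken. With 1000 bp on each side, which takes in the methylated flanks, the body minus the start was -3.22 points on PacBio and -5.44 points on ONT. Within the gene, methylation was lowest towards the 3′ end. The first 5 kb had 78.5% and 67.4%, and the last step, from 15 kb to the end at 19.9 kb, had 52.7% and 46.0%. A run of 30 low CpG sites at 628993-629385, in that last step, had 5.32% on PacBio and 6.59% on ONT. A run is defined here as at least 5 consecutive CpG sites that are each under 20% on both platforms. It lies 15160 bp from the CRLF2 start and contains no annotated gene start. A shorter run of 6 sites at 638933-639063 had 10.9% and 14.4%. Another run of 43 sites, at 619312-619878, lies beyond the 3′ end of CRLF2 in sequence with no annotated gene, and had 3.41% on PacBio and 2.90% on ONT.

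The first CSF2RA record was highly methylated from its start to near its end, and its start did not sink to the level of the CRLF2 start. Its start had 84.0% ± 15.3 on PacBio and 78.7% ± 10.4 on ONT over 50 CpG sites, with Wilson intervals of 83.8 to 86.7% on PacBio and 78.3 to 80.03% on ONT. The mean of the platforms was 81.4% ± 3.76. No site of this start was under 20% on either platform, and 37 of 50 were over 80% on PacBio and 29 on ONT. The lowest PacBio site, 60 bp before the start, had 31.7%, with 60.4% on ONT. The body had 86.4% ± 14.4 on PacBio and 77.3% ± 12.2 on ONT over 937 CpG sites. Body and start differed by 2.40 points on PacBio and by -1.41 points on ONT, so that the sign changed between the platforms and the mean difference of 0.495 points was smaller than its SD of 2.69. In none of the 984 CpG sites of the record was methylation under 20% on PacBio or on ONT. The nearest low run to its start was 9309 bp upstream. Methylation stayed between 82.8 and 89.8% on PacBio, and between 75.3 and 80.8% on ONT, in the 5-kb steps up to 25 kb, and was 76.4% and 65.2% in the last step.

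The second CSF2RA record had a narrow notch of low methylation at its start. Over the 38 CpG sites within 500 bp the start had 56.8% ± 34.2 on PacBio and 51.3% ± 24.6 on ONT, or 54.0% ± 3.85 over the platforms, with Wilson intervals of 55.1 to 58.7% and 49.3 to 51.8%. The 9 sites from 74 bp before to 73 bp after the start had 5.71% on PacBio and 16.0% on ONT, with a range of 3.10 to 15.4% and of 5.59 to 30.8%. All 9 were under 20% on PacBio and 7 on ONT. The notch was thus deeper on PacBio than on ONT. It held a run of 6 low sites at 703815-703849, which began 13 bp into the record. Methylation rose sharply into the record and unevenly upstream. The 7 sites from 250 to 100 bp upstream had 67.1% and 55.7%, the 5 sites from 500 to 250 bp upstream had 42.3% and 39.7%, and the 11 sites from 250 to 500 bp into the record had 88.6% and 76.2%. Within 100 bp of the start PacBio minus ONT was -10.3 points, the opposite sign to the region as a whole. The sign was also negative within 100 bp of the CRLF2 start, at -5.67 points.

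The body of the second record had 69.0% ± 33.6 on PacBio and 59.9% ± 30.6 on ONT over 935 CpG sites. It was 12.2 points above the start on PacBio and 8.63 points on ONT, a mean of 10.4 ± 2.54 points. With a start window of 1000 bp the difference was -0.608 and -1.66 points. Over its first 15 kb, notch included, the record had 84.7% on PacBio and 75.0% on ONT. From 722446 to 724306, that is 18644 to 20504 bp from its start, 4 low runs stood close together. The 161 CpG sites of this cluster had 5.07% ± 6.55 on PacBio and 3.60% ± 5.09 on ONT, as means over sites. The Wilson intervals, for calls pooled over sites, were 3.18 to 4.20% and 3.14 to 3.54%, and lie below these means. The cluster was dense in CpG, at 86.5 sites per kb over 1861 bp. It contains the start of no annotated gene. The closest, that of the minus-strand lncRNA LOC121818233 at 725372-727799, is 3493 bp away. LOC121818233 had 95.7% on PacBio and 80.7% on ONT at its own start.

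**Figure D2:**
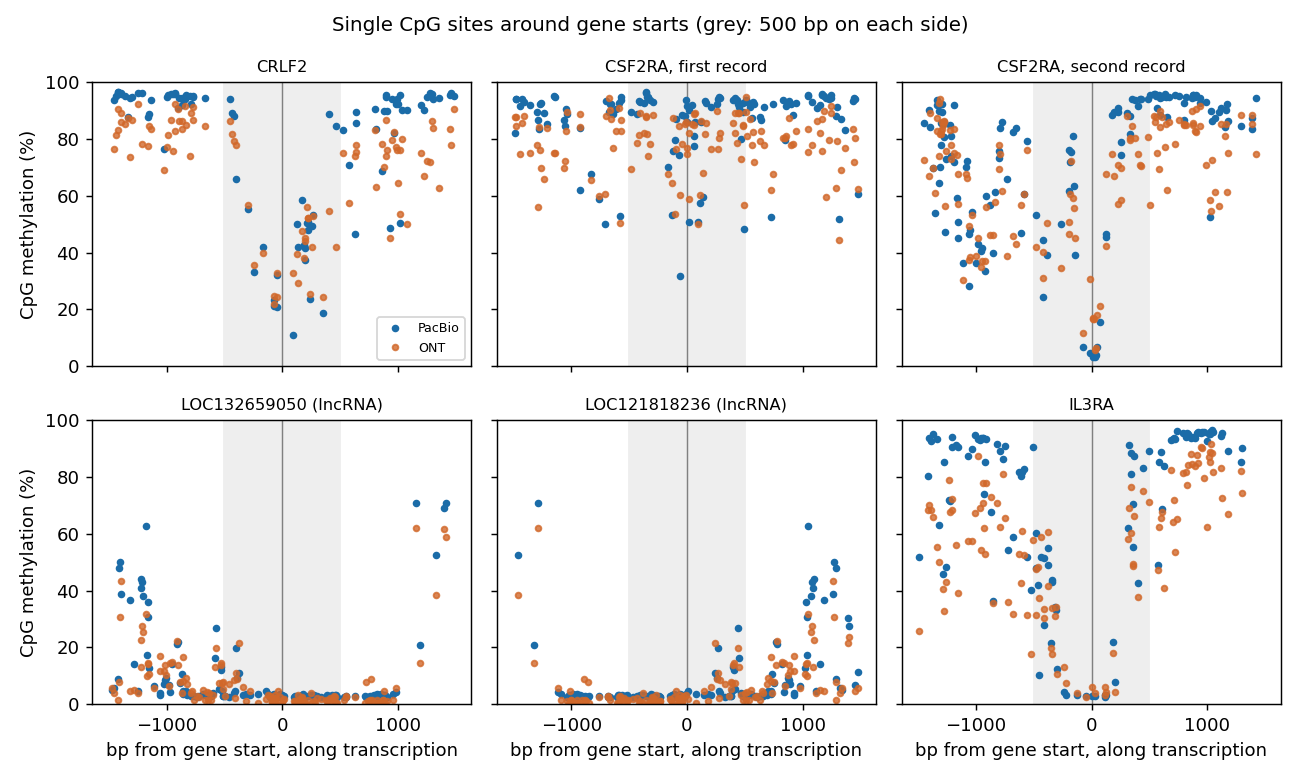
Methylation (%) of single CpG sites against the distance in bp from the start of 6 genes along the direction of transcription, PacBio in blue and ONT in orange, with 500 bp on each side shaded. CRLF2 sites sink to intermediate values, the first CSF2RA record stays high, the second has a notch of 9 sites at its start, and the lncRNA pair is low across the shaded span.

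The 2 CSF2RA records were compared to ask whether records of the same name carry the same methylation. At the start the first record was 27.2 points higher on PacBio and 27.4 points higher on ONT, and in the body 17.4 and 17.3 points higher. Both differences were larger than the gap between the platforms, which was 0.135 points for the start and 0.0747 points for the body. That gap is technical only, and the size of both differences depended on the settings. As a mean of the platforms, the start difference was 16.2 points with 1000 bp on each side. It was 66.1 points with 100 bp, a setting added after seeing the data. The body difference was 6.12 points with medians over sites. The body difference was uneven along the records. Over the first 15 kb of each record, the first was higher by 2.21 points on PacBio and 3.39 points on ONT. From 15 to 25 kb, it was higher by 39.6 and 39.1 points. Whether equal distances mark corresponding sequence was not tested, and the steps differed in their number of CpG sites (30 in the first and 74 in the second at 19 to 20 kb). Aligned at their starts, the records shared 26 steps of 1 kb, the last of which runs past the end of the second record. The first record was higher on both platforms in 18, that last step included, and the second in 4. The first was higher by over 20 points in 3. Those steps were 18 to 21 kb from the start. There the second record had 29.9%, 6.84% and 9.35% on PacBio, and the first 91.2%, 82.3% and 84.1%. The depth of the second record was 43 valid calls per site on PacBio and 175.5 on ONT, against 51 and 161.5 for the first.

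**Figure D3:**
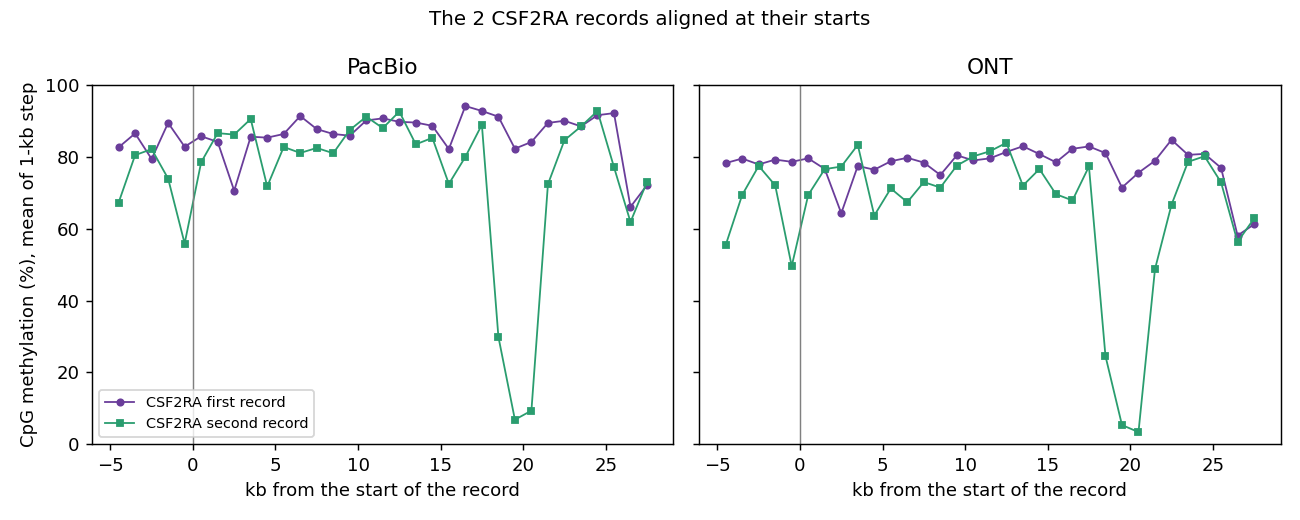
Mean CpG methylation (%) of 1-kb steps against the distance in kb from the start of the first (purple circles) and second (green squares) CSF2RA record, PacBio on the left and ONT on the right, from 5 kb before the start. The widest gap is from 18 to 21 kb, where the second record falls to between 6.84 and 29.9% on PacBio.

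Between CRLF2 and the first CSF2RA record, the stretch from 645001 to 669000 was less methylated than the body of any of the 3 records. Its 868 CpG sites had 59.2% ± 35.7 on PacBio and 52.4% ± 32.1 on ONT, 55.8% ± 4.81 over the platforms. Its difference from the CRLF2 body was -8.88 points on PacBio and -6.77 points on ONT, a mean of -7.82 ± 1.49 points. Its difference from the body of the first CSF2RA record was -27.2 and -24.9 points. Of its sites, 205 were under 20% on both platforms, or 23.6%, against 6.29% of the sites of the PAR. Of its 179 sites in low runs, 161 lay between 655331 and 660329, around the starts of 2 divergent lncRNAs, LOC121818236 (648333-659213, minus strand) and LOC132659050 (659343-669438, plus strand), which have no assigned function in the sources used here. The LOC121818236 start had 4.53% ± 4.41 on PacBio and 3.74% ± 4.68 on ONT over 62 CpG sites. The LOC132659050 start had 3.54% ± 2.52 and 2.43% ± 3.34 over 61 sites, most of them shared with the former. The run across both starts, at 659002-660329, was the longest of the region with 77 CpG sites in 1328 bp, and had 3.001% on PacBio and 1.78% on ONT.

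Without 1000 bp on each side of the lncRNA starts, the stretch had 68.0% on PacBio and 60.1% on ONT. It then differed from the CRLF2 body by -0.0256 and 1.01 points. A further pair of runs at 648221-648609, near the 3′ end of LOC121818236, began 3676 bp upstream of the CRLF2 start and was the low sequence closest to it. A lncRNA that starts next to the first CSF2RA record, LOC132659051 at 665400-669576 on the minus strand, was methylated at its start, at 84.2% on PacBio and 78.6% on ONT. Its start window shares most of its sites with that of CSF2RA. The 199 CpG sites between the CSF2RA records had 71.4% on PacBio and 63.8% on ONT, with no low run.

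In total 17 low runs held 428 CpG sites, which is 9.51% of the sites of the region. In the PAR, 5.45% of all sites were in such runs. The stretch between the genes held 8 runs, the second CSF2RA record 5, CRLF2 2, each 10-kb flank 1, and the first CSF2RA record and the gap between the records none. By 1-kb windows, 8 of 123 windows with at least 5 CpG sites were under 20% on both platforms, or 6.50%, compared with 1.7% of all such windows of the PAR. At a limit of 10% the count was 2, or 1.63%, and the share in the PAR was 1.19%. Of the 8 windows under 20%, 4 were in the stretch between the genes, 2 in the second CSF2RA record, 1 in CRLF2 and 1 in the flank beyond the 3′ end of CRLF2. Counted by gene starts, none of the 3 receptor records had a start under 20% on both platforms over 500 bp on each side. Among 45 protein-coding genes of the PAR with enough sites, 26 did, or 57.8%. These 45, called genes here, are records with 37 symbols, and the 3 receptor records are among them. SF3A2 and RIC1-RGP1 share 1 start in this count, and so do DHRSX and ZBED1. Within 100 bp on each side, a setting added once the data had been seen, 1 of the 3 records, the second CSF2RA record, was under 20% on both platforms, as were 27 of 38 PAR genes (71.1%). By the presence of a low run within 500 bp, 1 of the 3 records qualified, the second CSF2RA record, against 30 of the 45 genes (66.7%). Of the 8 annotated genes of the region, 2 had a low start, both lncRNAs, and 15.4% of all annotated gene starts of the chromosome did.

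The records also differed in CpG density and in how their sites were distributed. CRLF2 held 33.0 CpG sites per kb, the first CSF2RA record 35.7 and the second 38.0. At the starts the density was 27.0 sites per kb for CRLF2, 49.95 for the first CSF2RA record and 38.0 for the second, so the most methylated of the 3 starts was also the densest in CpG. The starts of LOC121818236 and LOC132659050, the least methylated of the 8 annotated starts of the region, had 61.9 and 60.9 sites per kb. Those of LOC132659051 and LOC121818233, which were methylated, had 43.96 and 27.0. In CRLF2, 51.4% of the sites were over 80% on PacBio and 8.05% were under 20% on both platforms, against 61.3% and 6.29% in the PAR. In the first CSF2RA record these shares were 80.8% and 0%. In the second they were 60.2% and 16.9%. Its median over sites was 88.2% on PacBio and 73.2% on ONT, against means of 69.5% and 60.4%. The medians of the first record were 92.8% and 80.2%.

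Set among the protein-coding genes of the PAR, CRLF2 and both CSF2RA records stood between the unmethylated and the fully methylated starts or at the high end. The median start of the 45 genes had 6.14% on PacBio and 3.16% on ONT. Their bodies, counted in 43 genes, had medians of 78.4% and 67.8%. CRLF2 ranked 17 from the highest at its start on both platforms, and 38 and 37 of 43 in its body. The first CSF2RA record ranked 7 on PacBio and 2 on ONT at its start, and 3 and 4 in its body. The second ranked 16 and 14 at its start, and 37 and 36 in its body. CRLF2 and the second CSF2RA record differed by 8.01 points at the start on PacBio and 5.41 points on ONT, and by 0.950 and 0.816 points in the body. The platforms differed by 2.60 and 0.134 points in these differences.

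**Figure D4:**
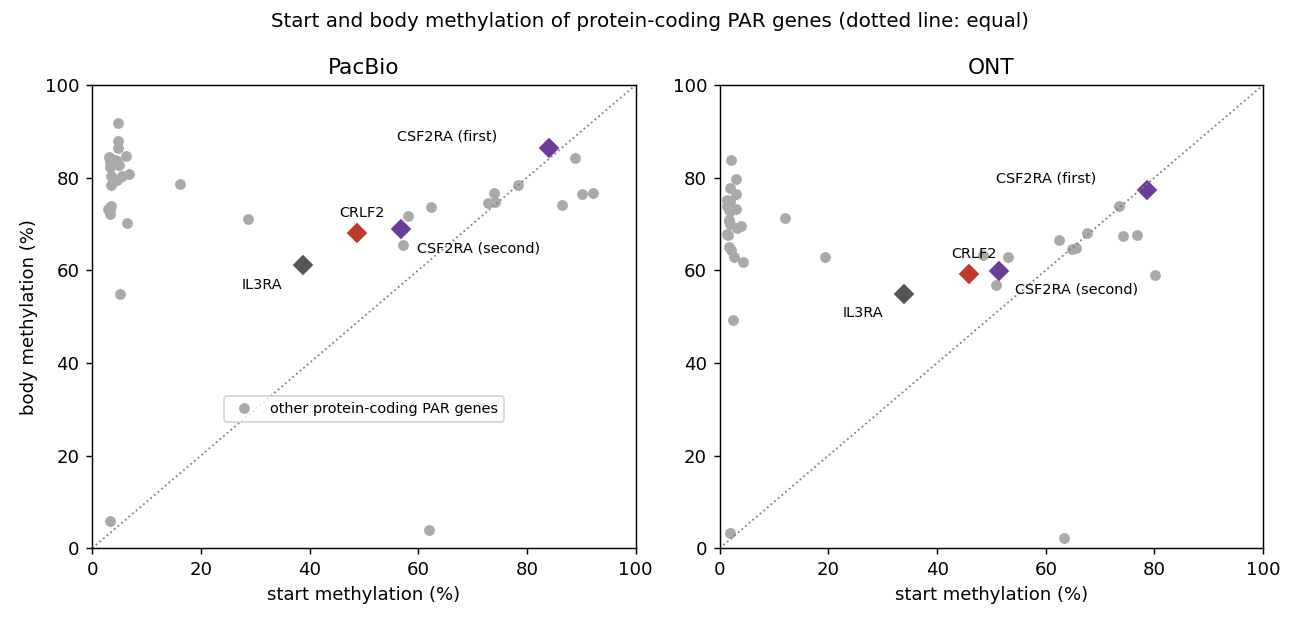
Body methylation (%) against start methylation (%) of the protein-coding PAR genes with enough CpG sites in both, PacBio on the left and ONT on the right, 1 point per gene record, with the dotted line where both are equal. CRLF2, the second CSF2RA record and IL3RA lie in the sparse middle of the start axis, and the first CSF2RA record lies close to the dotted line at the upper right.

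By the Euclidean distance over start and body methylation on both platforms, the gene most like CRLF2 was the second CSF2RA record, 9.75 points away. It was followed by 2 records of BOS2D, a gene of the lipocalin family that includes a bovine allergen, at 10.4 and 12.9 points. The same 2 BOS2D records, the closest at 4.61 points, were nearest to the second CSF2RA record, and a further BOS2D record was 8.51 points away. Their starts rest on only 7 to 14 CpG sites. Nearest to the first CSF2RA record was SF3A2, a subunit of the splicing machinery, at 8.21 points, with a start of 88.9% on PacBio and 73.5% on ONT. An ASMTL record and an OBP record, an odorant-binding protein gene, followed at 15.8 and 16.1 points.

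Genes known from the surface of blood cells and broadly expressed genes were compared as 2 lists. The first list held CRLF2, CSF2RA, IL3RA, P2RY8 and XG in 6 records, of which 2 had a low start (57.8% among all 45 genes) and 4 a low run within 500 bp (66.7% of the records, the same share as over all 45 genes), with a median start of 43.7% on PacBio and 39.95% on ONT. The low starts were those of P2RY8, a receptor of lymphoid cells, at 3.30% and 2.71%, and XG, a blood group antigen, at 16.1% and 12.04%. IL3RA, which starts at 735440 within the flank of the region, had 38.7% ± 30.1 on PacBio and 34.0% ± 24.0 on ONT over 36 CpG sites, with a run of 10 low sites across the start at 4.04% and 6.17%. The broadly expressed list held 8 symbols in 9 records (GTPBP6, PPP2R3B, SLC25A6, AKAP17A, ASMTL, DHRSX, ZBED1 and CD99). Of these, 8 records had a low start and 8 a low run within 500 bp, with a median of 4.69% and 1.89%. DHRSX and ZBED1 share 1 start, which counts for both here and among the 45 genes, so the 8 low records are 7 starts. The exception was an ASMTL record at 90.1% and 74.2%. Both lists were drawn up with these values known, so the contrast between them is partly built in. The first list also contains CRLF2 and both CSF2RA records, so its count and median partly restate their starts. Of its other records, P2RY8 and XG had low starts and IL3RA did not, and all had a low run within 500 bp. CD99, which stands in the second list with a start of 4.90% and 1.798%, is also found on the surface of blood cells.

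PacBio values were higher than ONT values across the region by 8.63 points, and at 82.0% of its CpG sites. The difference was 8.83 points in CRLF2, 8.98 in the first and 9.04 in the second CSF2RA record, 6.80 in the stretch between the genes, and 9.69 in the PAR. Over the 4499 CpG sites, which share reads, Pearson's r between the platforms was 0.929 and Spearman's rho 0.812, and over 124 windows of 1 kb r was 0.983. ONT was above PacBio in 4 of the 124 windows, most of all in the window from 664001 to 665000 in LOC132659050, with 63.8% against 57.1%. On ONT, 15.9% of the calls in the region were left out of the percentages as lying between the thresholds. This share was 17.3% in the first CSF2RA record and 13.3% at the CRLF2 start.

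Depth was uneven along the genes. The median over 1-kb windows was 52.5 valid calls per site on PacBio and 170 on ONT. In 3 windows inside the first CSF2RA record, from 681001 to 684000, depth was under 0.8 of the median on both platforms, with 23 to 35 calls on PacBio and 100 to 127 on ONT. Methylation there was 87.4 to 93.2% on PacBio and 77.9 to 83.5% on ONT, and without these windows the body of the record had 85.7% and 76.4%. In 19 other windows depth was under that limit on PacBio alone, among them those of the low cluster in the second CSF2RA record, where 32 calls per site stood behind the PacBio value and 196 behind the ONT value. The part of depth in these values was not tested.

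**Figure D5:**
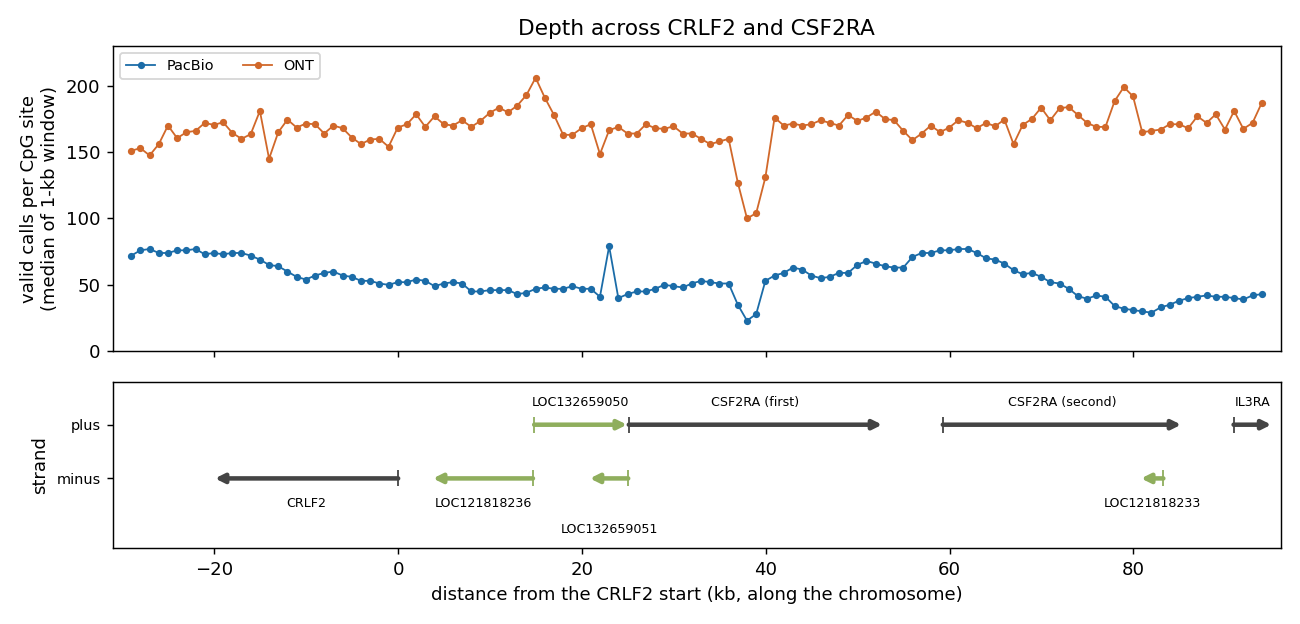
Depth in 1-kb windows, as the median of the valid calls per site (upper panel, PacBio in blue and ONT in orange) against the distance from the CRLF2 start in kb, with the annotated genes as arrows below. Both platforms drop inside the first CSF2RA record, and PacBio alone is low over the far part of the second.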

How the data were processed

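CpG methylation was measured in lung DNA of 1 sheep fetus on 2 platforms. For PacBio, the authors called methylation with Primrose, aligned with pbmm2 and ran pb-CpG-tools in its model mode. They deposited, per CpG site, a modelled percent, the read count and estimated counts of methylated and unmethylated reads. For ONT, Dorado base calls were aligned with Winnowmap by the authors and passed to modbam2bed with thresholds of 20% and 80%. They deposited, per strand, counts of methylated, unmethylated and in-between calls, a percent and a score for the share of valid calls, which served only to check the layout. How the alignments were filtered is not given in the sources used here.

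The strands of a CpG were added up for ONT, and the modelled percent was used for PacBio. A minimum of 5 valid calls per site left out no site. Starts were 500 bp on each side of the annotated start, and bodies lay more than 1000 bp from it. Gene positions came from the NCBI annotation of the same assembly, of whose 301 genes 241 matched the RefSeq table (ARS-UI_Ramb_v3.0) by position, among them 3 of the 8 genes of the region, all lncRNAs. Exons, promoters and proteins were not analysed here. The genes named were fixed as CRLF2, both CSF2RA records, every annotated gene of the region, the 3 nearest PAR genes of each record and 2 lists. The members and lists were chosen with earlier results of these data known. No p-value was taken, since the CpG sites share reads and there is 1 animal. Run detection was tested on simulated data, with a longer minimum run than the 5 sites used for the results. The planted runs were longer than the shortest runs reported here, so short runs were not covered. Apart from the CRLF2 start, the simulated background was evenly high, unlike the data. Alternatives covered the minimum depth, the mean, both call types, window and limit sizes. Python 3.11.15 with pandas 2.3.3, NumPy 2.4.6, SciPy 1.17.1 (Wilson intervals at 95%) and matplotlib 3.10.9 was used.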

Additional observations from a re-analysis of the deposited data

How the results depend on the processing

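Levels and differences between areas are means of the 2 platforms, and a value is named where it left the spread between them (counts: by over 1.5 times; PacBio minus ONT: by over the half-width of a 95% interval for counting error). Of 170 values recomputed, 107 stayed within these limits, 59 left them, and 4 left them with a change of direction. Among the 107, the body minus start of the first CSF2RA record, whose sign differed between the platforms, turned from 0.495 to -0.0981 points with medians and -0.113 pooled over calls. The body of the first CSF2RA record stayed within its spread under all 10 alternatives run on it. The CRLF2 and second CSF2RA starts depended most on the window, the first CSF2RA start on taking the median. At 250 bp, CRLF2 had 37.4%, the first CSF2RA record 76.4% and the second 44.2%, with bodies 26.2, 5.42 and 20.2 points above them and 32.2 points between the CSF2RA starts. At 1000 bp, CRLF2 had 67.9% and the second record 65.6%, the body minus start was -4.33 and -1.13 points, and the CSF2RA starts differed by 16.2 points. At 100 bp, added after seeing the data, the starts had 24.6%, 77.0% and 10.9%, bodies were 39.0, 4.84 and 53.6 points higher, the CSF2RA starts differed by 66.1 points and 1 of 3 records had a low start (PAR 71.1%).

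Medians over sites gave 45.0% and 74.9% for the CRLF2 start and body, 86.6% for the first CSF2RA start, and 62.0% and 80.4% for the second start and body. Bodies were then 29.9 (CRLF2) and 18.3 points (second record) above starts, the stretch had 68.6% and differed from the CRLF2 and first CSF2RA bodies by -6.27 and -17.8 points, and the CSF2RA records differed by 24.6 points at the start and 6.12 in the body. Without 1000 bp at the lncRNA starts, the stretch had 64.1% and these differences were 0.493 and -17.8 points. Without sites of low runs, added after seeing the data and bound to raise values since it drops low sites (20.6% of the stretch, 5.47% of CRLF2, 16.2% of the second CSF2RA record and none of the first), the stretch had 69.0% with differences of 1.95 and -12.9 points, the second CSF2RA body had 76.5%, or 22.5 points above its start, and the CSF2RA bodies differed by 5.35 points.

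The difference between the CSF2RA records had a platform spread of 0.0958 points at the start and 0.0528 in the body, so small shifts left it. At the start it was 27.8 at a minimum of 20 calls, 28.5 pooled over calls, 27.6 with ONT strands apart, 27.7 from PacBio read numbers and 25.5 points with in-between ONT calls counted as 0.5. In the body it was 15.5 (pooled), 17.3 (strands apart), 17.6 (read numbers), 16.3 (in-between calls), 16.9 (whole record) and 16.6 points (without low-depth windows, added after seeing the data). With in-between calls the stretch minus the first CSF2RA body was -24.4 points. PacBio minus ONT over the region was 9.15 points from read numbers and 11.1 with in-between calls. With in-between calls it was 10.6 in CRLF2, 13.5 and 11.4 in the first and second CSF2RA records and 7.97 in the stretch, and from read numbers 9.89 in the first record. Low windows numbered 2 at a limit of 10% (1.63%, PAR 1.19%), 16 at 500 bp (6.78%, PAR 2.17%) and 3 at 2 kb (4.92%, PAR 1.43%). Exons and introns were not run, as no exons of this build were at hand. The cause of these shifts was not tested beyond what each setting changes by construction. Depth limits the precision of single sites, on PacBio more than on ONT.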

Other observations

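Single CpG sites of intermediate methylation between highly methylated neighbours were scattered through CRLF2 and CSF2RA. A site was counted when it had 40 to 60% on PacBio and both adjoining sites had at least 80%. The region held 116 such sites, or 2.58% of its CpG sites. Of these, 22 were in CRLF2 (3.34% of its sites), 39 in the first CSF2RA record (3.96%) and 24 in the second (2.43%). The share was 3.17% in the PAR and 0.918% in the male-specific region. Their mean on ONT, which did not choose them, was 55.8% ± 12.2 (SD between sites) in the region. The strands of these sites differed on ONT by over 30 points at 56.9% of them in the region, at 48.9% in the PAR and at 8.90% in the male-specific region. Among all sites of the region at 80% or more on PacBio, the strands differed that much at 8.25%.

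Near the first CSF2RA record, the window from 667001 to 668000 had 79 valid PacBio calls per site between neighbouring windows at 41 and 40, while ONT had 166.5 there. Its methylation was 79.1% on PacBio and 79.9% on ONT.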
